A study of Mus musculus with 6 samples.

Results

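The 9 carrier and enzyme genes described here handle fatty acids and retinoids, in ATRX KO and ATRX WT mouse glioblastoma (GBM) neurosphere lines. They are 4 fatty acid-binding proteins (Fabp3, Fabp4, Fabp5 and Fabp7), both cellular retinoic acid-binding proteins (Crabp1 and Crabp2) and 3 retinaldehyde dehydrogenases (Aldh1a1, Aldh1a2 and Aldh1a3), 9 of the 13069 genes in the deposited table. They were picked by family and by their presence in the table, with the ATRX KO against ATRX WT values already known. Their differences between the genotypes are therefore given as a description, with no test.

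Fatty acid-binding proteins are small cytosolic proteins that hold a long-chain fatty acid and carry it between membranes, oxidation, storage and nuclear receptors of the PPAR family. Retinoic acid is made from vitamin A in 2 oxidation steps. Retinol dehydrogenases give retinaldehyde, and the Aldh1a enzymes turn that into retinoic acid, which Crabp proteins bind, RAR and RXR receptors read in the nucleus and Cyp26 enzymes break down. In the developing brain Fabp7 marks radial glia and Aldh1a2 marks the meninges.

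The cultures were grown as spheres in serum-free neural stem cell medium with FGF and EGF, and RNA-seq was run on 3 ATRX KO libraries (line code C54B) and 3 ATRX WT libraries (line code C39E). In both genotypes the tumours came from neonatal mice, C57BL/6 or FVB, whose ventricles received Sleeping Beauty transposon plasmids with a short hairpin against p53 and with NRAS. The sample labels call ATRX KO a knockout, while the growth protocol speaks of a short hairpin against ATRX that was or was not added. Each genotype is represented by 1 line code, so the genotype and the line cannot be told apart, and the strain of each line is not given. The libraries held 22177228 to 32477269 reads in ATRX KO and 34966108 to 38039847 reads in ATRX WT. Atrx itself stood at a mean log2 RPKM of 3.99 ± 0.15 in ATRX KO and 4.47 ± 0.04 in ATRX WT (SD, n = 3 each), a log2 difference of -0.48 (SE 0.068, limma adjusted p = 0.00013), so its transcript was lower but still present.

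Levels are the deposited log2 RPKM values, which count reads relative to gene length and library size on a log scale, and RPKM values and read counts come from the whole reads recovered from them. The authors added a small prior count before taking the log, so a gene with 0 reads still has a finite log2 value, and a large negative difference of a nearly silent gene depends on that prior. For such genes the ratio of summed reads, scaled by library size, is given with its 95% interval, which covers counting error only. Differences are ATRX KO minus ATRX WT. In bulk RNA, fewer cells of a type and less RNA per cell cannot be told apart.

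In all 9 genes the 3 ATRX KO libraries lay wholly on one side of the 3 ATRX WT libraries. The same held for 90.5% of all 12201 genes tested, so such a gap is the usual state of a gene between these lines and says nothing particular about the carriers. Of the 9 genes, 4 were higher in ATRX KO (Fabp4, Crabp1, Crabp2 and Aldh1a2) and 5 were lower (Fabp3, Fabp5, Fabp7, Aldh1a1 and Aldh1a3). The difference was at least 1 on the log2 scale for 7 of the 9, against 36.8% of all tested genes, and at least 4 for 5 of the 9, against 9.34%. The rule that chose the genes knew these differences, so nothing is read from those counts. The fatty acid-binding proteins and the retinaldehyde dehydrogenases held members of both directions, while both retinoic acid-binding proteins were higher in ATRX KO. The plot of log2 RPKM by library shows the 9 genes side by side.

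**Figure D1:**
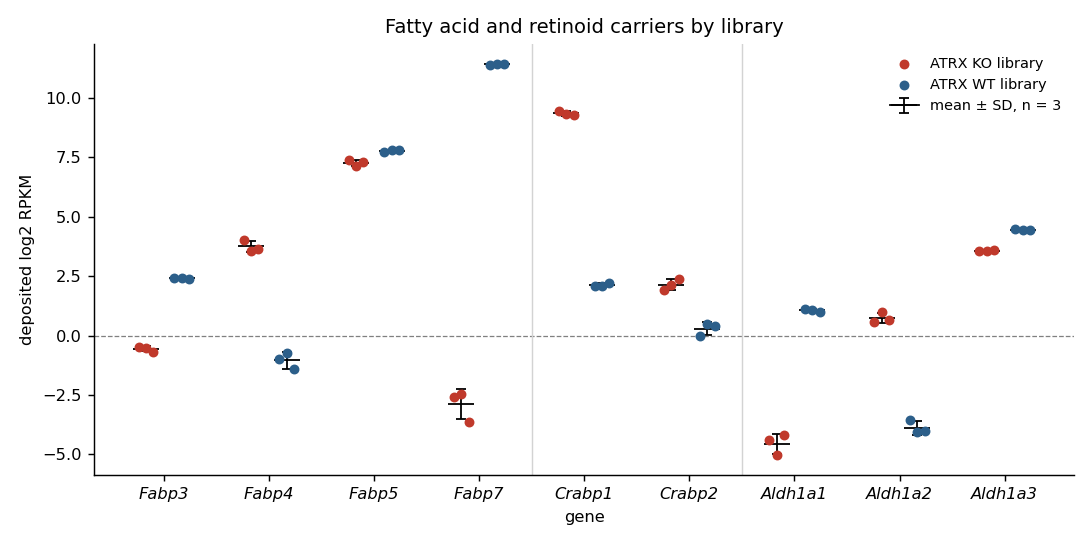
Deposited log2 RPKM (vertical axis) of the 9 carrier genes (horizontal axis), with 1 point per library, ATRX KO in red to the left of ATRX WT in blue, and black bars for the mean ± SD (n = 3). The lines separate fatty acid-binding proteins, retinoic acid-binding proteins and retinaldehyde dehydrogenases, and the 2 groups overlap for none of the 9 genes.

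Fabp7, the brain fatty acid-binding protein that binds the polyunsaturated fatty acids of the brain, was nearly silent in ATRX KO and among the most abundant transcripts of ATRX WT. It had 2, 2 and 0 reads in ATRX KO replicates 1 to 3, against 77564, 85887 and 84072 reads in ATRX WT replicates 1 to 3. In RPKM this was 0.0868, 0.100 and 0 in ATRX KO, against 2713, 2775 and 2783 in ATRX WT. The ATRX WT libraries were close to each other, and the ATRX KO libraries were too near 0 reads to be ranked. Fabp7 was the gene with rank 3 of 13069 by mean log2 RPKM in ATRX WT and rank 12206 in ATRX KO. The log2 difference was -14.32 (SE 0.26), and the ratio of ATRX WT over ATRX KO was 40550 (95% interval 15840 to 148800). The gene (ENSMUSG00000019874.11) lies on chromosome 10, 57784881 to 57788450 on the + strand (GRCm38).

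The bases before its start are shown because no carrier differed more between the lines. Promoter windows from RefSeq (GRCm38.p6) were matched to 5 of the 9 genes, namely Fabp3, Fabp7, Crabp1, Aldh1a1 and Aldh1a2. In the 250 bases before the start, both strands were searched for the TATA box (TATAAA), the CCAAT box (CCAAT), the GC box (GGGCGG), the POU factor octamer (ATGCAAAT), the nuclear receptor site (AGGTCA) and direct repeats of that site with 1, 2 or 5 bases between, the spacings known for PPAR and RAR partners with RXR. The Fabp7 window held a pair of CCAAT boxes and 1 receptor site, each on the strand opposite to the gene. At least 1 CCAAT box stood in 33.8% of 32851 promoter windows, and at least 1 receptor site in 14% of them. A match is only a run of letters and does not show that a factor binds. Capitals below mark the matches, and the run is chr10:57784673-57784880, + strand, and stops before the first annotated transcript start.
Fabp7: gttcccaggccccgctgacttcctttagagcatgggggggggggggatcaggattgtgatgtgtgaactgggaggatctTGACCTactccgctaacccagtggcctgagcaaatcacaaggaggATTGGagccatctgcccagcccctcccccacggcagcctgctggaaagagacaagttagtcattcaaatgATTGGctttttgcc

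Fabp5, the epidermal fatty acid-binding protein that can carry ligands to the receptor Ppard, was the main fatty acid-binding transcript left in ATRX KO. The RPKM of replicates 1 to 3 was 168, 139 and 157 in ATRX KO, against 212, 221 and 226 in ATRX WT. Every ATRX KO library was below every ATRX WT library, and replicate 2 was the lowest of ATRX KO. The ATRX KO mean was 70.5% of the ATRX WT mean, a log2 difference of -0.51 (SE 0.063), the smallest of the 9. Quantile normalization put it at -0.81. Fabp5 (ENSMUSG00000027533.10) lies on chromosome 3, 10012548 to 10016607, + strand.

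Fabp4, the carrier of adipocytes, macrophages and capillary endothelium, was higher in ATRX KO. It had 311, 198 and 166 reads in ATRX KO replicates 1 to 3, against 10, 13 and 7 reads in ATRX WT. In log2 RPKM these were 4.01, 3.57 and 3.65 in ATRX KO, against -0.97, -0.75 and -1.43 in ATRX WT. Replicate 1 was the highest of ATRX KO, at 119% of that group's mean RPKM, and the ATRX WT values rest on few reads. The log2 difference was 4.79 (SE 0.18), with a ratio of ATRX KO over ATRX WT of 34.3 (95% interval 23.8 to 51.3). Fabp4 (ENSMUSG00000062515.3) lies on chromosome 3, 10204088 to 10208576, - strand, in the same cluster as Fabp5.

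Fabp3, the heart and muscle form, was low in both lines and lower in ATRX KO. It had 12, 10 and 7 reads in ATRX KO replicates 1 to 3, against 125, 139 and 129 reads in ATRX WT. The mean log2 RPKM was -0.56 ± 0.10 in ATRX KO and 2.41 ± 0.04 in ATRX WT (SD, n = 3 each), a log2 difference of -2.97 (SE 0.080). Fabp3 (ENSMUSG00000028773.8, chromosome 4, 130308595 to 130315463, + strand) overlaps the genes Zcchc17 and Gm10570 on the other strand. The overlap with Zcchc17 is short, from 130315383 to the end of Fabp3. How strand was used in counting is not given in the sources used here, so reads of the overlapping genes may not be separated. Zcchc17 fell as well, with a log2 difference of -1.39 (SE 0.030, limma adjusted p = 3.9e-10), and its part in the Fabp3 value was not tested. Fabp3 and Fabp5 also have processed pseudogene copies in the annotation (Fabp3-ps1 and Fabp5l2), so some of their reads may have been split or dropped.

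Together the 4 transcripts summed to 185, 152 and 170 RPKM in ATRX KO, against 2930, 3002 and 3015 RPKM in ATRX WT. The make-up of this sum differed between the lines. Fabp5 made up 91.7% ± 0.711 of the sum in ATRX KO and 7.36% ± 0.144 in ATRX WT (SD, n = 3 each). Fabp7 made up 0.0377% ± 0.034 in ATRX KO and 92.5% ± 0.137 in ATRX WT. Fabp4 supplied most of the rest in ATRX KO, 7.93% ± 0.685, against 0.0133% ± 0.00382 in ATRX WT. In RPKM, Fabp5 was thus lower in ATRX KO although its share was larger.

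Crabp1, a cytosolic protein that holds retinoic acid and is known to pass it to Cyp26 enzymes, was the most abundant of the 9 transcripts in ATRX KO. The RPKM of replicates 1 to 3 was 709, 636 and 628 in ATRX KO, against 4.22, 4.15 and 4.56 in ATRX WT. All ATRX KO libraries were high, with replicate 1 above the other two, and all ATRX WT libraries were low and close together. Crabp1 had rank 68 of 13069 in ATRX KO and rank 9222 in ATRX WT. The log2 difference was 7.23 (SE 0.054), and the ratio of ATRX KO over ATRX WT was 154 (95% interval 139 to 170). Crabp1 (ENSMUSG00000032291.8) lies on chromosome 9, 54764748 to 54773110, + strand.

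Its promoter window is shown as that of the carrier with the largest positive difference. It held 5 GC boxes, a motif present at least once in 32.7% of windows, 4 on the gene's strand and 1 on the other, and 63.6% of its bases were G or C, against a median of 52.4% over all windows. No receptor site or direct repeat stood in these 250 bases. The run is chr9:54764498-54764747, + strand, with the GC boxes in capitals.
Crabp1: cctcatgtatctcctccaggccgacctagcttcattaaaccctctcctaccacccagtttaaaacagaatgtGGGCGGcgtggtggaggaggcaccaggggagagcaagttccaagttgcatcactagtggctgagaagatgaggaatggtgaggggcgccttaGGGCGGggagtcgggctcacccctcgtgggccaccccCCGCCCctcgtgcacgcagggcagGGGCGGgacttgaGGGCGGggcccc

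Crabp2, which carries retinoic acid to RAR in the nucleus, was also higher in ATRX KO but at a far lower level. It had 100, 102 and 96 reads in ATRX KO replicates 1 to 3, against 31, 49 and 44 reads in ATRX WT. In log2 RPKM these were 1.90, 2.14 and 2.38 in ATRX KO, against -0.02, 0.49 and 0.38 in ATRX WT, so the lowest ATRX KO library was well above the highest ATRX WT library. The log2 difference was 1.86 (SE 0.16). Crabp2 (ENSMUSG00000004885.5) lies on chromosome 3, 87948666 to 87953376, + strand. Crabp1 made up 99.3% ± 0.149 of the summed RPKM of both genes in ATRX KO and 78.8% ± 3.29 in ATRX WT (SD, n = 3 each), and the sum was 662 ± 44.0 RPKM in ATRX KO, against 5.47 ± 0.327 RPKM in ATRX WT.

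Among the retinaldehyde dehydrogenases, Aldh1a3, known as a marker of mesenchymal glioblastoma stem cells in human tumours, was the main transcript in both lines. The RPKM of replicates 1 to 3 was 11.7, 11.7 and 12.3 in ATRX KO, against 22.6, 21.6 and 21.7 in ATRX WT. The libraries of each genotype were within a narrow range, and the ATRX KO mean was 54.2% of the ATRX WT mean, a log2 difference of -0.88 (SE 0.037). Aldh1a3 (ENSMUSG00000015134.15) lies on chromosome 7, 66390890 to 66427517, - strand. Its share of the summed RPKM of the 3 enzymes was 87.7% ± 1.76 in ATRX KO and 91.3% ± 0.300 in ATRX WT, and the sum was 13.6 ± 0.382 RPKM in ATRX KO, against 24.0 ± 0.612 RPKM in ATRX WT (SD, n = 3 each).

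The second enzyme differed between the lines. Aldh1a2, the retinaldehyde dehydrogenase of mesoderm and meninges, had 99, 116 and 73 reads in ATRX KO replicates 1 to 3, against 5, 3 and 3 reads in ATRX WT. The log2 difference was 4.62 (SE 0.19), with a ratio of ATRX KO over ATRX WT of 40.0 (95% interval 22.0 to 80.9). Aldh1a1, the cytosolic enzyme used as a stem cell marker in many tissues, had 1, 0 and 1 reads in ATRX KO replicates 1 to 3, against 163, 171 and 157 reads in ATRX WT. The log2 difference was -5.62 (SE 0.22), and the ratio of ATRX WT over ATRX KO was 161 (95% interval 44.3 to 1332). Aldh1a2 thus filled 12.2% ± 1.84 of the summed RPKM in ATRX KO, against 0.172% ± 0.0569 in ATRX WT, while Aldh1a1 filled 0.0984% ± 0.0884 in ATRX KO and 8.54% ± 0.279 in ATRX WT (SD, n = 3 each). Aldh1a1 (ENSMUSG00000053279.8, chromosome 19, 20492715 to 20643465, + strand) stands beside its close copy Aldh1a7, and reads could be split between the pair.

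The windows before Aldh1a1 and Aldh1a2 are shown because they share motifs while the genes differ in opposite directions. Each held 1 octamer, found in 1.6% of windows, and 1 CCAAT box. The octamer began 56 bases before the start of Aldh1a1, at the second of its RefSeq starts, and 84 bases before that of Aldh1a2 (ENSMUSG00000013584.5, chromosome 9, 71215789 to 71296243, + strand). The first Aldh1a1 window and the Fabp3 window held no match to any motif searched. The octamer was chosen after the sequences were seen, and 77.6% of the bases were G or C before Aldh1a2 and 46.4% before Aldh1a1. The runs are chr19:20601718-20601960 and chr9:71215539-71215788, both on the + strand, with octamer and CCAAT box in capitals.
Aldh1a1: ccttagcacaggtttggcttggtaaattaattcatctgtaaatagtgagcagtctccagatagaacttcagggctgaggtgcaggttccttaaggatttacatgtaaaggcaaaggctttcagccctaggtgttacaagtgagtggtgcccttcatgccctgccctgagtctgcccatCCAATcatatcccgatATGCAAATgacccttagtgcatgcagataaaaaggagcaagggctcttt
Aldh1a2: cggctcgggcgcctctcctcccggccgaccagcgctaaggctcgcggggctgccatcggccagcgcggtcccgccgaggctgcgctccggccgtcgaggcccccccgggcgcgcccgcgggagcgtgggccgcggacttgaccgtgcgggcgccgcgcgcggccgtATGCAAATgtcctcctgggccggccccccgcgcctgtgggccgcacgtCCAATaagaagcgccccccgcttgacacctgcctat

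**Figure D2:**
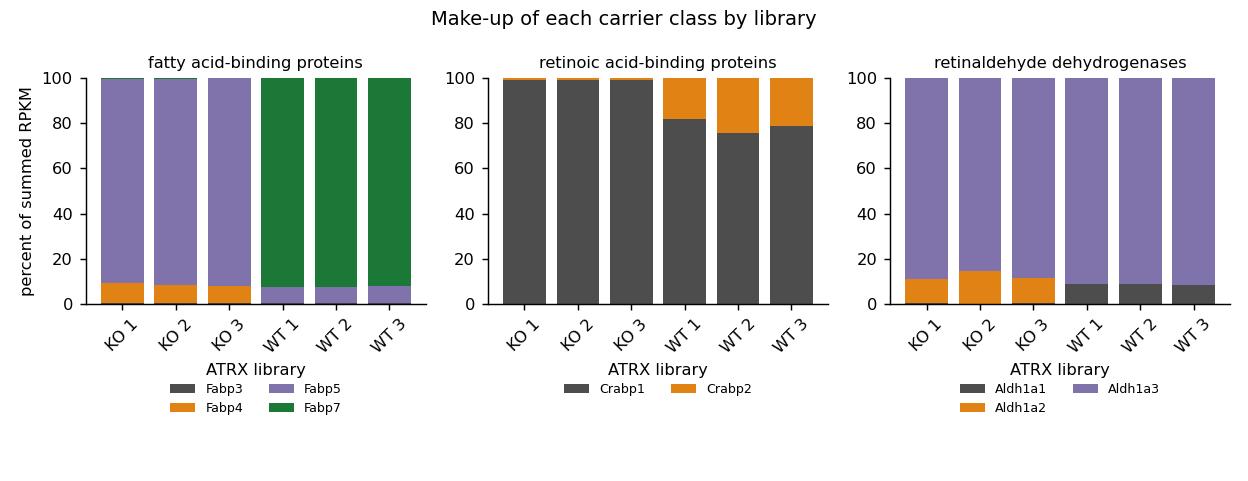
Share of each gene in the summed RPKM of its class (vertical axis, percent), for each ATRX KO library and, to its right, each ATRX WT library. Fabp5 fills 90.9% to 92.4% of the fatty acid-binding sum in ATRX KO, Fabp7 fills 92.3% to 92.6% in ATRX WT, and Aldh1a3 fills most of the dehydrogenase sum in both.

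Ordered by mean log2 RPKM, the ATRX KO line ran Crabp1, Fabp5, Fabp4, Aldh1a3, Crabp2, Aldh1a2, Fabp3, Fabp7 and Aldh1a1, and only Fabp4 (3.57 to 4.01) and Aldh1a3 (3.55 to 3.62) overlapped between libraries. The ATRX WT line ran Fabp7, Fabp5, Aldh1a3, Fabp3, Crabp1, Aldh1a1, Crabp2, Fabp4 and Aldh1a2, with no overlap between neighbours in the order. At the low end these log2 values rest on few reads and on the prior count. In RPKM without the prior, Fabp7 (0 to 0.100) and Aldh1a1 (0 to 0.0237) overlapped in ATRX KO as well. The filter on low values kept all 9 genes, but Fabp3, Fabp7 and Aldh1a1 passed it through ATRX WT alone, and Fabp4 and Aldh1a2 through ATRX KO alone. The spread within ATRX KO was above counting error for the abundant carriers, with a chi-square per degree of freedom of 65.9 for Crabp1 and 36.3 for Fabp5, a measure that grows with the number of reads. ATRX KO replicate 1 was the highest of its group for Fabp3, Fabp4, Fabp5 and Crabp1 and the lowest for Crabp2, Aldh1a2 and Aldh1a3. Leaving it out gave log2 differences of 4.66 for Fabp4 and 7.17 for Crabp1.

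The gene closest to each carrier in level and pattern was found by Euclidean distance over the 6 log2 RPKM values, as a description. The gene nearest to Fabp7 was Car3, at a distance of 4.19. Crabp1 was nearest to S100a6 (distance 1.00), Serpinf1 (1.16) and Ccl2 (1.19). Among the nearest genes to Fabp4 was Edil3 (0.62). Fabp3 was nearest to Zfp40 (0.20) and Faah (0.25), and Fabp5 to Cyc1 and Prkar1a (0.19 each). For the enzymes, Aldh1a1 was nearest to C1ql2 and Bves (0.56 each), Aldh1a2 to Fgfbp1 (0.63) and Aldh1a3 to Ctc1 and Coq7 (0.11 each), and Crabp2 was nearest to Ubxn11 (0.48).

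The genes around each carrier were examined for differences of the same direction. Within 2.5 Mb on either side, the median log2 difference of the tested neighbours was between -0.57 (Aldh1a3, 21 genes) and 0.20 (Crabp2, 86 genes), against -0.02 for all tested genes. Around Fabp7 the 23 neighbours had a median of -0.11, yet the nearest measured gene on each side was lower in ATRX KO. Smpdl3a, a lysosomal phosphodiesterase-like gene that lies 5.9 kb beyond Fabp7, summed to 3 reads in ATRX KO, against 2798 in ATRX WT, a ratio of ATRX WT over ATRX KO of 611 (95% interval 209 to 2966). Pkib, 43.8 kb before it, had 0 reads in ATRX KO, against 160 in ATRX WT, which is at least 34.9-fold lower against 3 reads over the group. Around Crabp1 the 37 neighbours had a median of -0.17, and the flanking Wdr61 and Ireb2 had log2 differences of 0.26 and -0.17.

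Aldh1a7, the close copy of Aldh1a1, was lower in ATRX KO as well. Aldh1a7, which lies 49.5 kb after Aldh1a1, had 0 reads in ATRX KO, against 678 in ATRX WT, which is at least 148-fold lower against 3 reads over the group (limma adjusted p = 2.4e-10), while Anxa1 on the other side rose by 1.90 (SE 0.042, limma adjusted p = 4.7e-10). Aldh1a2 lies 47.1 kb from the water and glycerol channel Aqp9, which rose with a log2 difference of 4.47 (SE 0.26, limma adjusted p = 2.8e-07), and 182.2 kb from Polr2m at -0.06 (limma adjusted p = 0.052). Aldh1a7 passed the filter on low values through ATRX WT alone and Aqp9 through ATRX KO alone. Each could thus only be called in the direction seen. In the cluster of Fabp5 and Fabp4, Gm9833 between them had a log2 difference of -0.19 and Impa1 beyond Fabp4 one of -0.00, neither past the threshold (limma adjusted p = 0.058 and 0.98). Aldh1a3 lies 2.5 kb from Lrrk1, which rose by 2.39 (SE 0.048, limma adjusted p = 2.9e-10) where Aldh1a3 was lower.

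**Figure D3:**
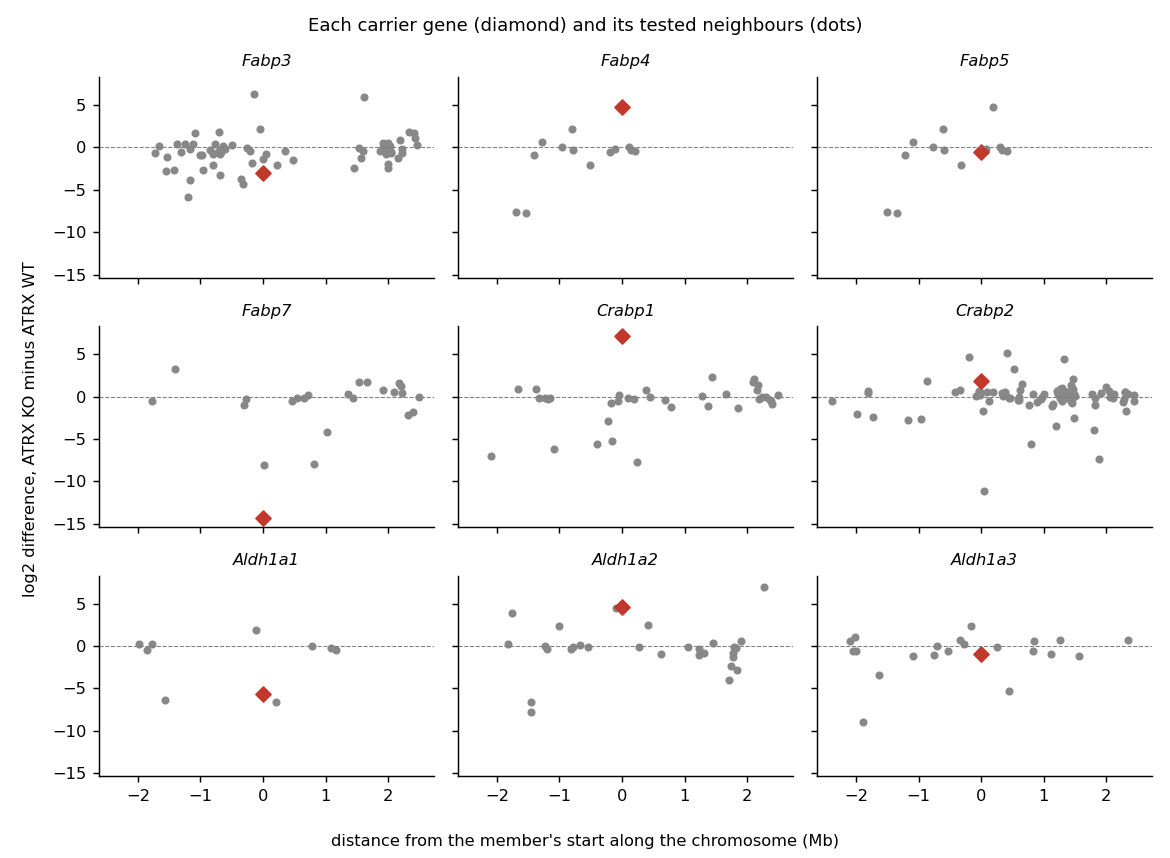
Log2 difference, ATRX KO minus ATRX WT (vertical axis), of each carrier (red diamond) and of the tested genes within 2.5 Mb (grey dots), against distance from the carrier's start (horizontal axis, Mb). The medians of the neighbours lie between -0.57 and 0.20, and the Fabp7 diamond at -14.32 is below all of its neighbours.

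Other genes of the same pathways were tested with limma over all 12201 genes, and "rose" and "fell" are used of genes with a Benjamini-Hochberg adjusted p under 0.05. By that rule 43.6% of all tested genes rose and 45.9% fell, 89.5% together, so a call is the usual outcome between these lines and each list is read against those shares. The lists were chosen with earlier results of these libraries known. A gene that reached log2 RPKM 0 in 1 genotype alone passed the filter through it and could only be called higher there. Among the pathway genes named below this held in ATRX KO for Stra6, Dhrs9 and Rbp2. In ATRX WT it held for Cyp26a1, Cyp26b1, Rarres1, Aldh1l1, Aldh3a1, Slc27a6, Mgll and Ucp2. Of 24 genes of retinoid supply and breakdown, 16 were tested, of which 6 rose and 8 fell. Their median log2 difference was -0.06, beside -0.02 for all genes. Stra6, the cell surface receptor that takes up retinol, summed to 3735 reads in ATRX KO against 216 in ATRX WT, and rose by 4.70 (SE 0.16, adjusted p = 6.5e-09). Dhrs9, a retinol dehydrogenase, rose by 5.33 (SE 0.13, adjusted p = 9e-10), and the alcohol dehydrogenase Adh7 rose as well (SE 0.082, adjusted p = 2.4e-10), at a mean log2 RPKM of 4.35 ± 0.07 in ATRX KO and 0.15 ± 0.15 in ATRX WT.

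Both measured Cyp26 enzymes, which break retinoic acid down, fell, though both passed the filter through ATRX WT alone and could only be called lower in ATRX KO. Cyp26a1 stood at a mean log2 RPKM of -2.64 ± 0.46 in ATRX KO and 2.14 ± 0.15 in ATRX WT (SD, n = 3 each), with 19 reads in ATRX KO against 919 in ATRX WT, a log2 difference of -4.78 (SE 0.22, adjusted p = 4.5e-08). Cyp26b1 fell by 2.13 (SE 0.085, adjusted p = 1.9e-08), and Dhrs4, a retinal reductase, fell as well (SE 0.053, adjusted p = 8.8e-09), at 2.10 ± 0.08 in ATRX KO and 3.61 ± 0.02 in ATRX WT. Rdh13, a retinol dehydrogenase, gave no call (log2 difference 0.04, adjusted p = 0.40), and its direction turned when libraries were scaled by reads in the table (-0.16). Rdh10, the main retinol dehydrogenase of the embryo, and Dhrs3, which reduces retinaldehyde back to retinol, were chosen after their values were seen and rose by 1.45 and 1.30. Rbp2, the intestinal retinol-binding protein, summed to 150 reads in ATRX KO against none in ATRX WT, which is at least 76.3-fold higher against 3 reads over the group.

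The receptors moved both ways. Among 14 nuclear receptors and cofactors tested (of 17) there were 7 rises, 4 falls and 3 genes without a call. The median was 0.26 while the mean was -0.06, and scaling by reads in the table gave 7 rises and 7 falls. Rarb, a retinoic acid receptor that is itself induced by retinoic acid, fell by 1.94 (SE 0.062, adjusted p = 4.4e-09), at 2.89 ± 0.13 in ATRX KO and 4.83 ± 0.02 in ATRX WT. Ppard, the PPAR that Fabp5 supplies, rose by 2.11 (SE 0.042, adjusted p = 2.7e-10), at 5.64 ± 0.07 in ATRX KO and 3.54 ± 0.04 in ATRX WT. Rxrb, a partner of both kinds of receptor, rose by 1.19, and the corepressor Nrip1 by 2.18. Ncor1, a corepressor of unliganded receptors, gave no call (0.06, adjusted p = 0.085), and its direction turned under scaling by reads in the table (-0.13) or by quantiles (-0.04). Ppara, Pparg and Rxrg were under the filter, and Pparg, chosen after its value was seen, had 32 reads in ATRX KO against 185 in ATRX WT.

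Genes that respond to retinoic acid were split. Among 16 tested (of 20) there were 7 rises and 8 falls, the median was -0.44 and the mean -0.12, and 7 of the 16 stand in another list as well. Beside Cyp26a1, Cyp26b1 and Rarb, Rarres1 fell by 4.41 (SE 0.11, adjusted p = 9.5e-10). Stra6, the transglutaminase Tgm2 (3.37, SE 0.064, adjusted p = 2.1e-10) and Nrip1 rose most. The known responders thus did not share a direction.

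The wider aldehyde dehydrogenase family was split too, with 7 rises and 8 falls among 15 genes and a median of -0.25. The mitochondrial folate enzyme Aldh1l2 rose by 2.99 (SE 0.030, adjusted p = 8e-12) and Aldh18a1, which makes the proline precursor, by 1.39 (SE 0.026). The cytosolic folate enzyme Aldh1l1, an astrocyte marker, fell by 10.12 (SE 0.095, adjusted p = 5.9e-12), with 37 reads in ATRX KO against 69357 in ATRX WT, and Aldh3a1, a detoxifying enzyme, fell by 4.31 (SE 0.098).

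On the fatty acid side, uptake, activation and storage genes divided evenly, with 13 rises and 13 falls among 26 tested (of 32). Their median was -0.03 and their mean -0.79. The lipid droplet coat genes Plin3 and Plin2 rose, Plin3 by 2.90 (SE 0.059, adjusted p = 2.9e-10) and Plin2 by 2.74 (SE 0.029, adjusted p = 1e-11). The fatty acid transporter Slc27a6 fell by 6.15 (SE 0.20, adjusted p = 4.5e-09) and the acyl-CoA synthetase of glia and steroid tissue Acsbg1 by 5.18 (SE 0.086, adjusted p = 9.9e-11). Mgll, which splits monoglycerides, summed to 3 reads in ATRX KO, against 2714 in ATRX WT, a ratio of ATRX WT over ATRX KO of 593 (95% interval 203 to 2877). Dbi, the acyl-CoA-binding protein, named here after its value was known, fell by 2.99 (SE 0.029, adjusted p = 6.7e-12), at log2 RPKM 7.12 to 7.18 in ATRX KO, against 10.13 to 10.15 in ATRX WT.

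Among beta-oxidation genes there were 17 falls, 5 rises and 2 genes without a call, with 24 tested of 26, where 45.9% of all tested genes fell. Their median was -0.54. Cpt1a, which commits fatty acids to mitochondrial oxidation, fell by 3.92 (SE 0.055, adjusted p = 4.3e-11), at 0.23 ± 0.04 in ATRX KO and 4.15 ± 0.05 in ATRX WT. The carnitine carrier Slc25a20 fell by 1.80 (SE 0.045) and the peroxisomal enzyme Hsd17b4 by 1.64 (SE 0.033), while Cpt2, the inner membrane partner of Cpt1a, rose by 1.39 (SE 0.038). Hadh and Acads gave no call (0.02 and -0.02, adjusted p = 0.61 and 0.74). Among 11 PPAR-responsive genes tested (of 23) there were 2 rises and 9 falls, the median was -1.32, and 9 of the 11 also stand in another list. Ucp2, a mitochondrial carrier, fell by 6.33 (SE 0.11, adjusted p = 1.2e-10), and Txnip rose (SE 0.040, adjusted p = 8.3e-11), at 6.88 ± 0.08 in ATRX KO and 4.38 ± 0.03 in ATRX WT. Scaling by reads in the table moved the median of all genes by -0.20, so small differences in these lists are relative to the scaling.

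**Figure D4:**
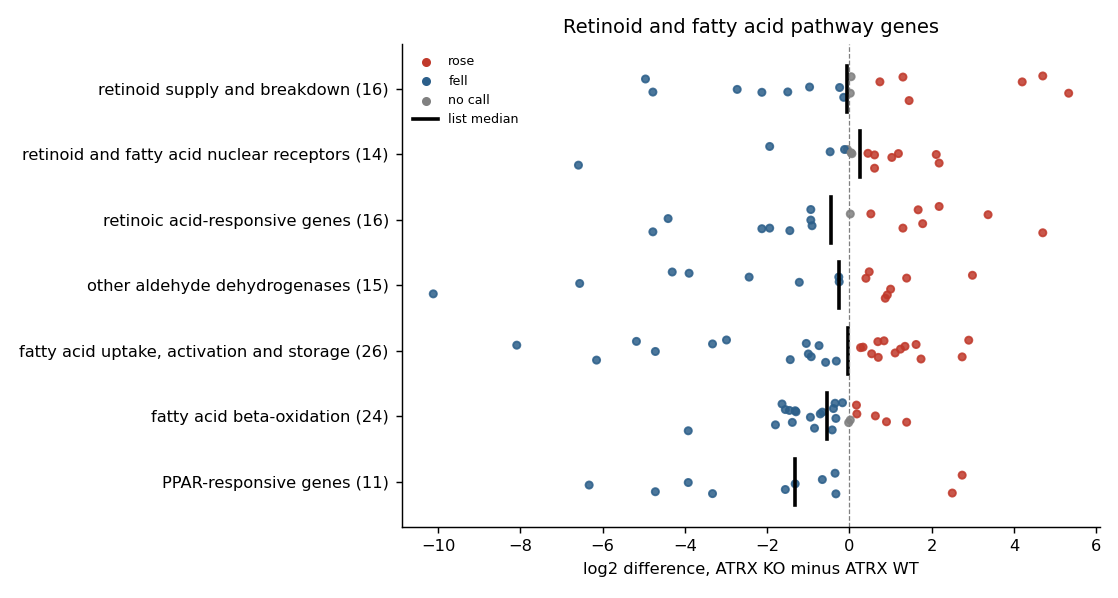
Log2 difference, ATRX KO minus ATRX WT (horizontal axis), of the tested genes of each pathway list (rows, with the number tested), with rises in red, falls in blue, genes without a call in grey and the list median as a black bar. The list medians run from -1.32 for PPAR-responsive genes to 0.26 for nuclear receptors and cofactors.

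Markers of the cell types in which the carriers are best known differed between the lines as well. All 10 tested mesenchymal and meningeal fibroblast genes, of 12, rose, beside the higher Crabp1, Crabp2 and Aldh1a2 and the lower Aldh1a3. The summed RPKM of all 12 was 1382 to 1564 in ATRX KO, against 46.6 to 49.3 in ATRX WT. Col3a1 averaged 724.6 RPKM in ATRX KO. Col1a2 and Foxd1 were below the filter, with means of 0.623 and 0.679 RPKM in ATRX KO. Of 11 radial glia and neural stem markers 9 fell and 2 rose, at a sum of 336 to 360 RPKM in ATRX KO, against 737 to 749 in ATRX WT, and all 4 tested oligodendrocyte lineage genes fell, at a sum of 2.36 to 2.52 RPKM in ATRX KO against 292 to 301 in ATRX WT, with Olig1 and Bcas1 at 0 reads in ATRX KO, beside the lower Fabp7. Of 5 astrocyte markers 4 fell and Gja1 rose, at a sum of 147 to 148 RPKM in ATRX KO, against 219 to 228 in ATRX WT. Gja1 made up most of the ATRX KO sum, with a mean of 143.6 RPKM. Aldoc averaged 3.32, Aldh1l1 0.153 and Slc1a2 0.0451 RPKM there, while Mlc1 had 0 reads. Most of the ATRX WT sum was Aldh1l1, with a mean of 190.9 RPKM, while Gja1 averaged 15.33. Sox2 and Nes, both on the radial glia and neural stem list, were present in both lines and fell by 2.02 and 1.69, chosen after their values were seen. The filter on low values limits these counts. Of the 10 fibroblast genes, all 10 averaged at least log2 RPKM 0 in ATRX KO but only 3 did in ATRX WT. Of the 4 oligodendrocyte genes, 1 did in ATRX KO and all 4 in ATRX WT. A gene kept through 1 genotype alone could only be called higher there. The unanimous counts are thus partly set by the filter. The mixed counts are limited in the same way. Of the astrocyte markers, Aldh1l1, Slc1a2 and Mlc1 passed through ATRX WT alone. Of the radial glia and neural stem markers, Ptprz1, Lhx2, Pax6 and Prom1 passed through ATRX WT alone and Gli3 through ATRX KO alone. Among all tested genes 43.6% rose and 45.9% fell. The part of these marker shifts in the carrier values was not tested.

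Beside the higher Fabp4 stood a mixed set of markers. Of 10 endothelial genes 4 were tested, of which Cdh5, Emcn and Flt1 rose and Esam fell, with a sum over 5 genes of 17.8 to 20.2 RPKM in ATRX KO, against 4.29 to 4.83 in ATRX WT. Cdh5, the endothelial cadherin, had 1764 reads in ATRX KO against 12 in ATRX WT. Kdr, the endothelial VEGF receptor, was below the filter with 100 reads in ATRX KO against 189 in ATRX WT. Pecam1, Tek, Cldn5, Erg and Tie1 were not among the 13069 genes of the data, so they could not be tested. Of 10 macrophage and microglia markers 3 were tested and all 3 rose, Tmem119, Cd14 and Cd68, at a sum of 33.8 to 39.6 RPKM in ATRX KO, against 5.98 to 6.69 in ATRX WT. The rest of that list, Adgre1, Csf1r, Aif1, Itgam, Ptprc, Tyrobp and C1qa, was not among the 13069 genes of the data and could not be tested. Tmem119, Cd14, Cdh5 and Emcn passed the filter through ATRX KO alone, so they could only be called higher there. Esam passed through ATRX WT alone and could only be called lower in ATRX KO. Of 8 adipocyte markers Lipe fell and Pparg was below the filter, at a sum of up to 4.19 RPKM in ATRX KO, against up to 8.67 in ATRX WT. Adipoq, Plin1, Cidec, Lep, Cfd and Cidea were not among the 13069 genes of the data. Of 8 striated muscle markers, beside which Fabp3 is known, only Tnnt2 was tested and rose by 3.69. Myod1, below the filter, went the other way, with 15 reads in ATRX KO against 123 in ATRX WT. Myog, Des, Ckm, Actc1, Myh3 and Pax7 were not among the 13069 genes of the data. Tnnt2 and Myod1 summed to 18.5 to 22.0 RPKM in ATRX KO against 1.91 to 2.22 in ATRX WT. In ATRX KO the means were 19.65 RPKM for Tnnt2 and 0.101 for Myod1. Of 4 tested Schwann cell markers 2 rose and 2 fell, with a sum over 5 genes of 23.4 to 24.2 RPKM in ATRX KO, against 38.5 to 38.7 in ATRX WT. Which cells of each culture held Fabp4 was not tested.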

How the data were processed

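RNA was measured in 3 ATRX KO and 3 ATRX WT libraries, each prepared from 4 ug of RNA by a strand-marking kit and sequenced from both ends at 42 nt, per the labels' protocols. The authors deposited log2 RPKM for 13069 genes in 1 table. Per the submitters' processing notes edgeR 3.20.9, STAR 2.5.3a, Trim Galore, HTSeq 0.11.2 and FastQC were among the tools, and the builds mm9 and mm10 are named without a role. The gene filter is not given in the sources used here.

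The deposited log2 values fall on whole-read steps above a shared floor, with a prior count that averages 2 reads. Whole reads were recovered for 100% of values within 0.0001 reads and rebuilt the table to within 5.3e-14 log2 units. Reads in the table numbered 22177228 to 38039847 per library, and the sizes behind the deposited scaling were 0.932 to 0.935 of them in ATRX KO and 1.07 of them in ATRX WT.

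A gene was tested when 3 or more libraries reached log2 RPKM 0, which kept 12201 of 13069. Fits used limma 3.58.1 under R 4.3.3 (moderated by empirical Bayes along the mean-variance trend, two-sided, Benjamini-Hochberg adjustment over all tested genes, threshold 0.05, 4 residual and 4.2 prior degrees of freedom). The fit and the read recovery were tested on simulated data. Intervals are exact at 95%, from summed reads, and the floor is 3 reads over a group. The alternatives tried were other filters, another pseudocount, other scalings, no trend, limma-voom on the recovered reads, a replicate block and each library left out.

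The members and lists were chosen with earlier results of these data known. The rule for named genes took all 9 members, Atrx, and, of each list, up to 3 rises and 3 falls of largest size past the threshold, without overlap between the groups and with the higher one averaging log2 RPKM 1 or more, up to 2 genes without a call, the nearest genes in pattern and the chromosomal neighbours; some of these, and 1 list, are not reported here. Positions are from GENCODE M21 (GRCm38), with 1 position for 12598 symbols, and promoter sequences from RefSeq (GRCm38.p6). Nothing says that libraries of a genotype came from separate animals, so p-values cover only the variation among these libraries, possibly technical.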

Additional observations from a re-analysis of the deposited data

How the results depend on the processing

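The 9 carrier differences kept their direction under each of the 14 alternatives, and Aldh1a1 and Aldh1a2 gave no value with the filter at log2 RPKM 1. The sizes of the differences of low genes depended on the prior. With a pseudocount of 1 RPKM, Fabp7 stood at -11.24, Aldh1a1 at -1.56 and Aldh1a2 at 1.32. Scaling by reads in the table gave 4388 rises and 6689 falls over all genes, 7 falls among receptors and cofactors and 3 rises in beta-oxidation, no filter gave 7 falls among receptors with all 17 of them tested, and quantile normalization gave 3 rises in beta-oxidation. Of 66 named genes, the sign turned only in genes without a call. With scaling by reads in the table these were Hadh (-0.18), Ncor1 (-0.13) and Rdh13 (-0.16), and with quantile normalization Hadh (-0.08) and Ncor1 (-0.04). With 1 library left out they were Acads (range -0.05 to 0.02) and Hadh (-0.00 to 0.06). The causes were not tested. The tests on counts of edgeR and DESeq2 were not run, since the deposited unit is log2, and limma-voom, added after the data were seen, gave 5364 rises and 5642 falls. Replicate numbers did not pair the libraries, with correlations of deviations of -0.045, 0.051 and -0.038 for numbers 1 to 3, and the fit with the replicate block gave 5287 rises and 5564 falls. Read numbers of 0 to 13 in the low group limit the sizes for Fabp7, Aldh1a1, Aldh1a2, Fabp3 and Fabp4.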
